A study of Mus musculus with 4 samples.

Results

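The 10 genes described here were 4 Notch receptors (Notch1, Notch2, Notch3, Notch4), 3 ligands (Jag1, Jag2, Dll4) and 3 target genes (Hes1, Hey1, Heyl), taken by symbol from the 32285 genes of the deposited matrices. All 10 were found, and all 10 had UMIs (unique molecular identifiers, which count captured RNA molecules) in every library. The study sorted single cells from hind limb muscle (gastrocnemius and tibialis anterior) of males aged 2 months, and asked how the cells around the neuromuscular junction differ when muscle is losing and regaining its nerve supply. All mice carried S100GFP-tg, a GFP reporter driven by the S100B promoter that marks Schwann cells, and were otherwise WT or lacked Sod1, the cytosolic superoxide dismutase (Sod1KO, deleted in the whole animal). Live cells of 4 mice pooled per genotype were sorted by GFP, which gave 4 libraries with 1 library per group: WT GFP+, Sod1KO GFP+, WT GFP- and Sod1KO GFP-.

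Notch receptors are cut when a Jagged or Delta-like ligand on a neighboring cell binds them, and the freed intracellular domain acts with the DNA-binding protein RBPJ to switch on target genes such as those of the Hes and Hey families. In vessels the pathway is known for setting arterial identity in endothelium and for maintaining smooth muscle cells and pericytes, for which Notch3 is the characteristic receptor. In muscle it keeps satellite cells quiescent, and in nerve it acts in the Schwann cell lineage.

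The libraries held 5498, 7267, 2052 and 6598 barcodes in the order just given, which is the order of all values below, and 17263 cells were kept. The median UMI count per barcode was lowest in the WT GFP- library, at 6152.5, against 10554.5 to 13825.5 in the others, and that library also had clusters nearly of its own, so each difference in the GFP- sort rests on 1 library that stood apart. Any 2 libraries shared 1 to 13 barcodes. Sod1 itself was read at 91.0, 98.2, 124 and 113 CPM (UMIs scaled to a library or class total of 1e6), so it was still read in both libraries labelled Sod1KO, slightly above WT in the GFP+ sort and slightly below it in the GFP- sort. The 3' tags need not fall in the deleted part, so they checked nothing, and Sod1KO stands for the label throughout.

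Cells were clustered without the 10 genes and without 49 other Notch pathway genes, so no level of these genes shaped a cluster. Other genes read below, such as markers, were not left out. Classes were then named from marker lists, and a class is called "like" its cell type for that reason. The arterial endothelial-like class held 65, 50, 151 and 315 cells, the capillary endothelial-like class 158, 137, 320 and 1069, the smooth muscle-like class 614, 471, 39 and 202, and the pericyte-like class 39, 50, 52 and 204. Schwann cells came almost only from the GFP+ sort, with 1048 and 617 myelinating (mSC-like) and 373 and 794 terminal (tSC-like) cells. Between 23.2% and 57.6% of the cells of a library stayed unnamed. A level is the sum of a gene's UMIs over the cells of a class in 1 library, as CPM of that class, and the intervals given are exact 95% intervals that cover counting error only. With 1 library per group no difference was tested, and a gene is called higher or lower only as a description, where it differed at least 2-fold with at least 20 UMIs behind it.

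Promoters are shown first for a target gene, a modulator and a receptor whose levels separated the classes below. RefSeq promoters on GRCm38.p6, from 250 bases before to 50 bases after the start of the gene, were at hand for 7 of the 10 genes, all but Hes1, Hey1 and Heyl. The RBPJ motif GTGGGAA, sought on both strands, was in 6.38% of all 32851 promoters and in none of those 7. Of the 49 other pathway genes 38 had 1 or more promoters in the table, and 7 of these genes held it (Aph1a, Hes5, Hes7, Hey2, Lfng, Psen2, Spen). Shown here are Hey2, a target gene, and Lfng, a fringe glycosyltransferase that modifies Notch receptors, chosen for their levels. The core ETS motif AGGAAG, no match of which overlapped an RBPJ match in the promoters shown, was in 35.4% of all promoters, and Notch4 held it 4 times while the other 6 held none. In the lines that follow, capitals mark the RBPJ motif for Hey2 (chr10:30842734-30843033, minus strand) and Lfng (chr5:140607091-140607390, plus strand) and the ETS motif for Notch4 (chr17:34564045-34564344, plus strand), on either strand.
Hey2: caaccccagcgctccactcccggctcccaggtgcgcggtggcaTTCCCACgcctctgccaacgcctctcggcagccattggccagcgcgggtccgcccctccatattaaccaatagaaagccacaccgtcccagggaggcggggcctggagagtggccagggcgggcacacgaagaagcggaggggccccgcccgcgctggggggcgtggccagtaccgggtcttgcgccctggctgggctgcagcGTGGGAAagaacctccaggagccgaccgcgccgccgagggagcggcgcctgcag
Lfng: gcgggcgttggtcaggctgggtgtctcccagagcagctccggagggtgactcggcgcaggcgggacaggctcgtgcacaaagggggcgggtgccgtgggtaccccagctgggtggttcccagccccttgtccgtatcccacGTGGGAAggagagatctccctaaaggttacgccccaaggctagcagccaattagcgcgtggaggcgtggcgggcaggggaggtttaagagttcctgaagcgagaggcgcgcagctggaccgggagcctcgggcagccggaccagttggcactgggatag
Notch4: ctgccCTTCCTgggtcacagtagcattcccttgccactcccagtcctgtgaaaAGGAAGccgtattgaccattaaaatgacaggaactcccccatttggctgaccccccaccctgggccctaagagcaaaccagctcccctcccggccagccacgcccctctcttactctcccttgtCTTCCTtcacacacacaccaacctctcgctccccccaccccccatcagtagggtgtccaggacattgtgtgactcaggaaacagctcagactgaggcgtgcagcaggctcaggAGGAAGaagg
The Hey2 motifs began 207 and 4 bases before the start of the gene, the nearer one running across it, and the Lfng motif began 109 bases before. A match of letters is a description and does not show that a factor binds there.

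Each receptor had its own set of classes. Notch1 was highest in arterial endothelial-like cells, at 339, 314, 321 and 313 CPM. Capillary endothelial-like cells had 189, 163, 214 and 179 CPM, a range that overlapped that of venous endothelial-like cells, 155 to 185 CPM, but not the arterial one. Lymphatic endothelial-like cells reached 20 cells only in the Sod1KO GFP- library and had 220.1 CPM there. Outside endothelium, tSC-like cells had 140.4 and 113 CPM in the GFP+ libraries, within the 113 to 159.8 CPM of pericyte-like cells. Macrophage-like cells had 74.3 and 67.6 CPM in the same GFP+ libraries, below the tSC-like values. In the GFP- sort they had 144 CPM in 24 WT cells and 84.5 CPM in Sod1KO. Tenocyte-like cells were lowest, with 4.50 to 6.82 CPM.

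Notch2 was lowest where Notch1 was highest. It stood at 3.18 to 5.33 CPM in arterial and 1.23 to 6.30 CPM in capillary endothelial-like cells. In mSC-like cells it was at 174 and 152 CPM and in macrophage-like cells at 153 to 194 CPM. Mesenchymal-like cells, a class of fibroblasts, had 113 to 149 CPM. Their cluster 11 passed 62.5% of a list of nerve (endoneurial) fibroblast markers and 57.1% of the mesenchymal list. The mSC-like and macrophage-like ranges overlapped, as both did with the 124 to 163 CPM of satellite-like cells, and set no order among these classes. Within endothelium the lymphatic endothelial-like cells stood apart, with 88.9 CPM.

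Notch3, the receptor of vascular mural cells, was at 651, 805, 716 and 664 CPM in pericyte-like cells. Smooth muscle-like cells had 552, 521, 555 and 473 CPM, below the pericyte-like value in every library. The only other named classes above 100 CPM were satellite-like cells, the muscle stem cells, with 245 to 324 CPM in the 3 libraries that held 20 or more of them, and venous endothelial-like cells, with 145 to 274 CPM. The venous value came from 1 of its 2 clusters. Cluster 23, led by Plvap and Esm1, had 427 and 379.7 CPM in the GFP+ libraries and 304 CPM in the Sod1KO GFP- library, whereas cluster 20, led by Sele and Lrg1, had 9.65, 6.95 and 10.1 CPM. The 12 pericyte markers summed to 4516 to 4619 CPM in cluster 23 and to 109.8 to 557 CPM in cluster 20, and their part in the Notch3 value was not tested.

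Notch4 was highest in blood endothelium. Arterial endothelial-like cells had 78.8, 68.3, 81.9 and 66.9 CPM, and capillary endothelial-like cells had 61.9, 70.6, 70.9 and 59.5 CPM. The 2 ranges overlapped. Venous endothelial-like cells had 24.3 to 31.0 CPM, and lymphatic endothelial-like cells had 1.57 CPM. Outside endothelium the highest value was 22.0 CPM, in pericyte-like cells of the WT GFP+ library, against 0 UMIs in those of the Sod1KO GFP+ library.

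**Figure D1:**
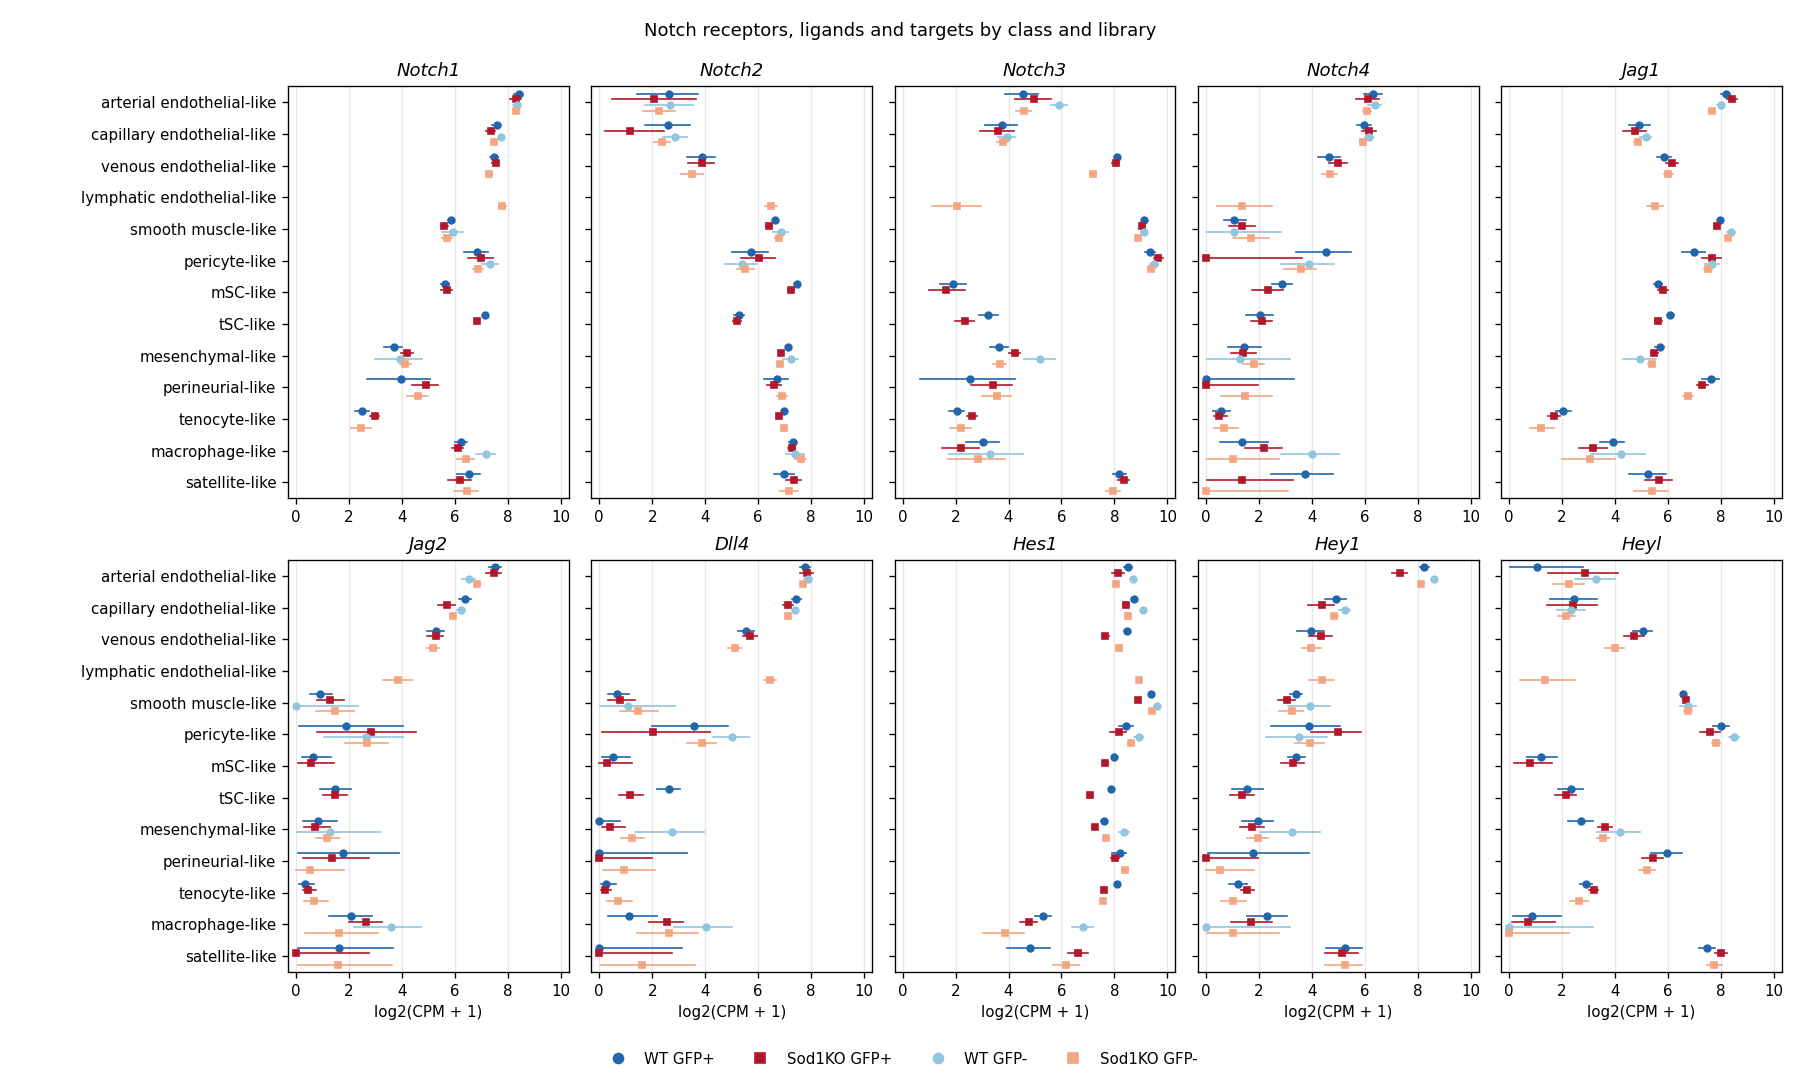
Level of each gene, as log2(CPM + 1), in 13 named classes (vertical axis) for each library with at least 20 cells of the class. Points are class sums, bars are exact 95% counting intervals, and colors and shapes mark the 4 libraries. Dll4, Jag2 and Notch4 are highest in blood endothelial-like classes, Notch3 in pericyte-like, smooth muscle-like, satellite-like and venous endothelial-like cells, and Hey1 in arterial endothelial-like cells, where it reaches 389 CPM.

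The ligands split between the vessel lining and its wall. Dll4, the Delta-like ligand of endothelium, was at 217, 226, 234 and 203 CPM in arterial endothelial-like cells and at 172, 138, 167 and 137 CPM in capillary endothelial-like cells. After each cell was thinned to 1000 UMIs, 13.2% to 19.7% of arterial endothelial-like cells held a Dll4 UMI. In mSC-like cells of the WT GFP+ library, which should lack the gene, the thinned share was 0.096% (exact binomial interval 0.002% to 0.531%). Unthinned, those shares were 66.9% to 89.2% and 0.286%, at median depths of 7648 to 12526 UMIs in arterial endothelial-like cells and 6254.5 in mSC-like cells. Smooth muscle-like cells had 0.592 to 1.74 CPM of Dll4, and 0.651% to 2.56% of them held a UMI unthinned, at median depths of 16798 to 20644 UMIs. The arterial shares lay far above those of both classes.

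Jag2, like Dll4, was highest in arterial and then capillary endothelial-like cells. It was at 183, 176, 91.2 and 114 CPM in arterial endothelial-like cells, where the GFP+ libraries lay above both GFP- libraries, and at 82.1, 51.0, 74.3 and 59.8 CPM in capillary endothelial-like cells. Its level in venous endothelial-like cells was 35.2 to 37.9 CPM. The ligands parted in lymphatic endothelial-like cells, where Jag2 was at 13.6 CPM, below its venous range, and Dll4 at 85.7 CPM, above its venous range of 33.7 to 51.1 CPM. Outside endothelium no named class exceeded 10.9 CPM.

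Jag1 was the ligand shared by arterial endothelium and the wall. It stood at 251, 232, 331 and 304 CPM in smooth muscle-like cells and at 290.2, 339.9, 252 and 201 CPM in arterial endothelial-like cells, ranges that overlapped. Pericyte-like cells had 124 to 202 CPM. Perineurial-like cells, which form the sheath of nerve bundles, had 108 to 194 CPM. Both Schwann classes were lower, at 48.1 to 67.1 CPM, and capillary endothelial-like cells lower again, at 25.8 to 34.7 CPM.

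The 3 target genes differed in breadth. Hes1 was present in every named class, from 473 to 768 CPM in smooth muscle-like cells down to 13.6 to 111 CPM in macrophage-like cells. Hey1 was at 302, 159, 389 and 275 CPM in arterial endothelial-like cells, and no other named class with 20 cells exceeded 37.3 CPM. Heyl was at 255, 193, 359.9 and 223 CPM in pericyte-like cells and at 178 to 254 CPM in satellite-like cells. In smooth muscle-like cells Heyl was lower, at 93.1 to 108 CPM, and in mSC-like cells it was at 1.30 and 0.715 CPM. The receptor Notch3 and the target Heyl were thus both high in pericyte-like, satellite-like and smooth muscle-like cells.

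Within blood endothelium, arterial endothelial-like cells were set against capillary endothelial-like cells of the same library. Jag1 and Hey1 were higher at least 2-fold in all 4 libraries, against 3.17% of the 8526 genes compared, and none of the 8 genes that could be compared was lower, against 2.55%. Jag1 was higher by 3.31, 3.72, 2.86 and 2.85 on the log2 scale. The Hey1 ratio was 3.37, 3.02, 3.39 and 3.31. The endothelial receptor and Delta ligand moved less. Notch1 was higher in all 4 libraries by 0.58 to 0.95, and Dll4 by 0.33 to 0.71. Hes1, the broad target, was lower in all 4 libraries by a small amount, with log2 ratios of -0.23, -0.29, -0.37 and -0.47. The other 3 genes did not pass 2-fold in every library. Jag2 was at 1.16, 1.79, 0.30 and 0.93, Notch3 was past 2-fold in 2 libraries, and Notch4 lay between -0.05 and 0.35. No other pathway gene was past 2-fold in every library among the 30 compared.

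Mural cells, the smooth muscle-like and pericyte-like cells together, were compared with arterial, capillary, venous and lymphatic endothelial-like cells together. Clusters 5, 13 and 18 held endothelial and pericyte markers together, stayed unnamed and so were on neither side. They held 12.0%, 14.5%, 57.1% and 63.6% of all Notch3 UMIs of a library. For Heyl the shares were 13.3%, 11.6%, 65.8% and 58.7%, and for Dll4 31.9%, 29.9%, 31.9% and 36.0%. The contrast therefore covers only cells with markers of 1 lineage. Of the 10 genes 4 were higher in mural cells in every library (Notch2, Notch3, Jag1, Heyl), against 8.98% of the 11866 genes compared. The 5 that were lower in every library were Notch1, Notch4, Jag2, Dll4 and Hey1, against 14.7%. The Dll4 ratio was -7.20, -7.04, -3.73 and -4.55 on the log2 scale, and that of Notch2 was 3.39, 3.08, 2.56 and 2.95. Heyl was higher by 2.68, 2.82, 5.28 and 4.80, and Notch3 by 2.17, 1.97, 3.89 and 3.98. In the WT GFP+ library 542 Notch3 UMIs came from venous endothelial-like cells, 535 of them from cluster 23 with its pericyte markers, against 21 from arterial and 22 from capillary cells. With the venous and lymphatic classes both left out, a choice made after seeing these values, arterial and capillary cells remained. Notch3 was then higher by 5.14, 5.02, 4.64 and 5.16 and Heyl by 4.88, 4.41, 5.32 and 5.33. The same counts of 4 higher and 5 lower were found. Hes1 was higher by 0.30 to 0.82 and past 2-fold in none. Pericyte-like cells carried 563 to 1301 CPM of the 12 endothelial markers and smooth muscle-like cells 163 to 216 CPM, whose part in the endothelial genes read there was not tested.

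Other members of the pathway were read from the list of 49 genes, of which 39 could be compared. Hey2, Nrip2 and Dtx3 were higher in mural cells in every library, 7.69% of those compared, and 5 genes, or 12.8%, were lower. Neither share exceeded that of all genes. Hey2 was at 80.4, 80.5, 57.8 and 51.0 CPM in mural cells and at 1.68, 2.13, 1.80 and 1.03 CPM in endothelium. The genes lower in every library were Dll1, another Delta ligand, the fringe enzymes Lfng and Mfng, the protease Adam10 and the secretase subunit Psen2. Mfng was at 56.2, 50.4, 50.6 and 44.2 CPM in endothelium, and mural cells had 4, 2, 0 and 6 UMIs of it. Fringe enzymes are known to alter the preference of Notch receptors for Delta over Jagged ligands.

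Within the wall, smooth muscle-like cells did not differ from pericyte-like cells past 2-fold in every library for any of the 6 genes compared, against 6.61% of genes higher and 11.8% lower. The Heyl ratio of smooth muscle-like over pericyte-like cells was -1.46, -0.95, -1.74 and -1.06 on the log2 scale, short of 2-fold in 1 library only. The Notch1 ratio was -0.98, -1.40, -1.42 and -1.18. Hes1 went the other way, with ratios of 0.94, 0.73, 0.67 and 0.79. Hey2 and Nrip2 were higher in every library. Hey2 had 1117, 692, 83 and 280 UMIs in smooth muscle-like cells and 0, 10, 2 and 18 in pericyte-like cells, which in the WT GFP+ library put the log2 ratio at 3.33 or more, taking the count of 0 as a floor of 3 UMIs in the class. Hey2 was thus on the smooth muscle side, and Heyl was higher on the pericyte side, though short of 2-fold in 1 library. Maml2 and Maml3, coactivators of the Notch complex, and Numb and Dtx3 were lower in smooth muscle-like cells in every library. Of the 29 other pathway genes compared, 6.9% were higher and 13.8% lower, both near the shares of all genes.

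The Schwann classes divided the receptors between them. In the GFP+ libraries Notch1 was higher in tSC-like than in mSC-like cells, by 1.54 and 1.16 on the log2 scale, and Notch2 was lower, with ratios of -2.21 and -2.09. Notch1 and Heyl were higher in both libraries, against 15.9% of the 12714 genes compared, and Notch2 and Hey1 were lower, against 8.16%. Heyl rested on 25 and 35 UMIs in tSC-like cells and 9 and 3 in mSC-like cells. Jag1 did not go one way, with ratios of 0.48 and -0.16. The ligands Dll4 and Jag2 had at most 5.20 CPM in either class. Of the other pathway genes Lfng was lower in tSC-like cells, with 1 and 7 UMIs against 115 and 44, as were Adam10 and Nrip2. Neurl1a, Adam17, Psen2, Ncstn, Maml2 and Fbxw7 were higher. Of the 36 other pathway genes compared, 16.7% were higher and 8.33% lower, both close to the shares of all genes.

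The 3 clusters of tSC-like cells all held Notch1, with 139 and 109 CPM in cluster 7 (led by Btc), 142 and 127 CPM in cluster 15 (led by Bche) and 101 and 125 CPM in cluster 33 (led by Scn7a). They came from different libraries: cluster 7 held 65 WT and 634 Sod1KO GFP+ cells, and cluster 15 held 280 and 130. Class values for tSC-like cells therefore set mainly cluster 15 in WT against mainly cluster 7 in Sod1KO.

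Sod1KO was compared with WT within each class and sort that had 20 cells in both libraries, which gave 18 pairs and 139 values with 20 or more UMIs. Of these, 2 were higher at least 2-fold in Sod1KO, against 4.73% of all genes over the same pairs, and 9 were lower, against 3.35%. Without doublet removal the counts were 9 higher and 4 lower, with ambient RNA subtracted 9 were higher, and in the GFP+ libraries alone 3 were lower. Within single pairs the share of all genes higher was 4.42% in mesenchymal-like GFP+ and 5.12% in satellite-like GFP+ cells, where those 2 values lay. The share lower was 4.28% in arterial endothelial-like GFP-, 3.25% in pericyte-like GFP-, 7.02% in tSC-like GFP+, 4.65% in mesenchymal-like GFP-, 2.85% in macrophage-like GFP+ and 9.22% in macrophage-like GFP- cells, where the 9 lay. The 18 pairs drew on the same 4 libraries and are not independent. The median log2 ratio of all genes in a pair lay between -0.15 and 0.03. The medians over the pairs were -0.12 for Notch1, -0.10 for Notch2, -0.14 for Notch3 and -0.11 for Notch4. For the ligands they were -0.17 for Jag1, -0.02 for Jag2 and -0.28 for Dll4, which was lower in 5 of 7 pairs. Of the targets, Hey1 had -0.37 (lower in 11 of 14 pairs) and Heyl -0.26 (lower in 9 of 13).

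Hes1 had nearly 1 direction across classes. It was lower in Sod1KO in 17 of the 18 pairs, in 11 of 12 in the GFP+ sort and in 6 of 6 in the GFP- sort, with a median log2 ratio of -0.43. Among 3992 genes measured in all pairs, 3.13% were lower in at least 17 of 18, 5.16% of genes were lower in at least 11 of 12 GFP+ pairs and 12.6% in 6 of 6 GFP- pairs. In 15 pairs the counting interval lay wholly below 0, as it did in at least that many pairs for 0.551% of the 3992 genes. A counting interval narrows as UMIs rise, and these genes were not matched to Hes1 in UMIs. The share therefore cannot separate the size of the Hes1 difference from the abundance of Hes1, whose part was not tested. Of the 17 lower values 16 were under 2-fold. In smooth muscle-like cells Hes1 went from 670.2 to 473 CPM in GFP+ and from 768 to 679 CPM in GFP- cells. The tSC-like class had 234 CPM in WT and 133 CPM in Sod1KO, a log2 ratio of -0.82 (-0.92 to -0.71), and its 3 clusters taken singly gave -0.78, -0.66 and -0.89. In mSC-like cells it was -0.34 (-0.46 to -0.22). Hes1 was thus lower in Sod1KO in both Schwann classes and in each cluster of the terminal class.

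The 2 largest Hes1 differences rested on few molecules. In macrophage-like GFP- cells Hes1 had 51 UMIs in 24 WT cells and 13 UMIs in 77 Sod1KO cells, a log2 ratio of -3.04, but 2 WT cells held at least 50% of the WT UMIs. The 12 endothelial markers summed to 2253 CPM in those WT cells and 267 CPM in the Sod1KO cells, and their part was not tested. In satellite-like GFP+ cells, the exception in direction, Hes1 had 13 UMIs in 37 WT cells and 63 UMIs in 58 Sod1KO cells, a log2 ratio of 1.87 (1.00 to 2.86).

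Enzymatic dissociation of tissue is known to induce immediate early and heat shock genes, and 15 of them were read beside Hes1. Their median log2 ratio ran from -0.56 to 0.23 over the 18 pairs. Jund was lower in Sod1KO in 17 of 18 pairs, Zfp36 in 16 and Nr4a1 in 14, whereas Fosb was lower in 5 and Jun in 7. The list moved much like Hes1 in some pairs and not in others. In capillary endothelial-like GFP+ cells its median was -0.28 beside -0.31 for Hes1, and in pericyte-like GFP- cells it was -0.56 beside -0.30. In smooth muscle-like GFP+ cells it was -0.01 beside -0.50. The part of the dissociation response in the Hes1 values was not tested.

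**Figure D2:**
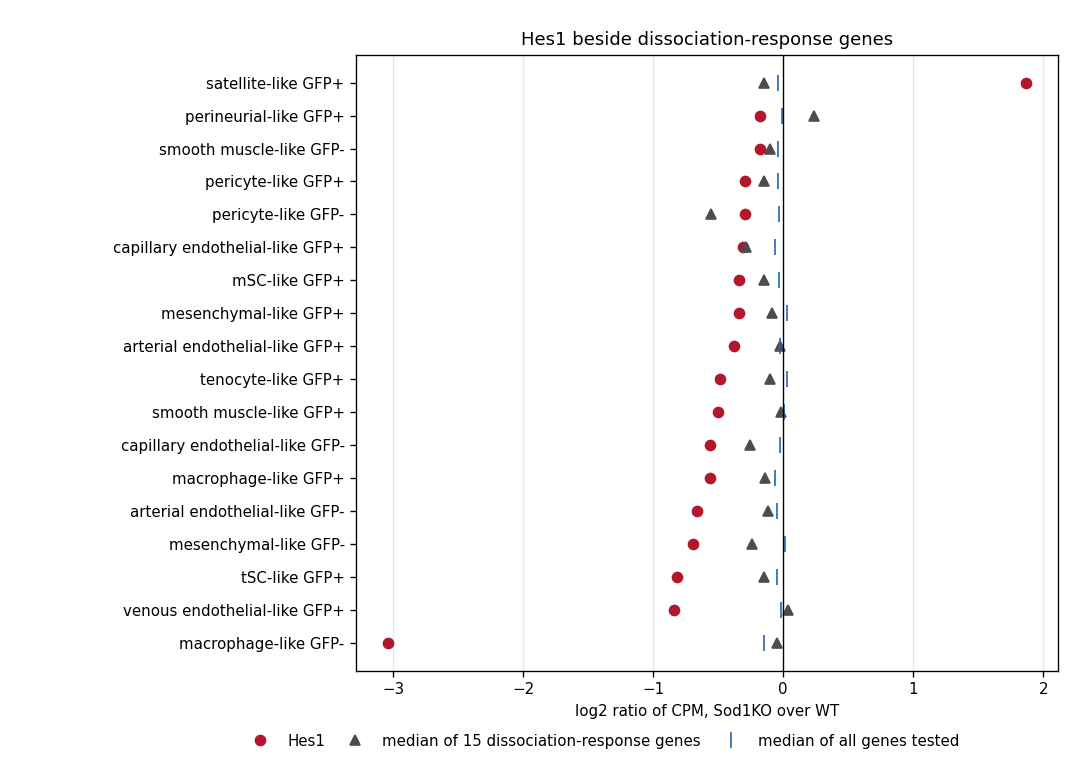
Log2 ratio of Sod1KO over WT (horizontal axis) in 18 class and sort pairs, ordered by Hes1. Circles are Hes1, triangles the median of 15 dissociation-response genes and ticks the median of all genes tested. Hes1 lies left of 0 in 17 pairs and left of the triangle in most, and satellite-like GFP+ cells are the exception at 1.87.

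Hey1, the arterial target, was lower in Sod1KO arterial endothelial-like cells of both sorts. It had 302 CPM in WT and 159 CPM in Sod1KO GFP+ cells, a log2 ratio of -0.93 (-1.27 to -0.59), and 389 and 275 CPM in GFP- cells, a ratio of -0.50 (-0.64 to -0.35). Neither passed 2-fold. Notch1, which these cells share, had ratios of -0.11 and -0.04, and Dll4 had 0.06 and -0.21. Jag1 was at 0.23 and -0.32, without a common direction. Capillary endothelial-like cells had Hey1 at 29.3 and 19.6 CPM in GFP+ and 37.2 and 27.7 CPM in GFP- cells, lower in Sod1KO in both, though in the GFP+ sort the interval of the ratio, -1.26 to 0.09, held 0. The ligands of capillary endothelial-like cells were lower in Sod1KO in both sorts too, with ratios of -0.32 and -0.28 for Dll4 and -0.69 and -0.31 for Jag2, and Notch1 stood at -0.22 and -0.26. In venous endothelial-like GFP+ cells Hey1 went the other way, with 29 UMIs in WT and 44 in Sod1KO, a ratio of 0.39 (-0.32 to 1.12).

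Heyl in the mural classes had no such common pattern. In pericyte-like cells it had 255 CPM in WT and 193 CPM in Sod1KO of the GFP+ sort, and 359.9 and 223 CPM in the GFP- sort, ratios of -0.41 and -0.69. In smooth muscle-like cells the ratios were 0.10 and -0.01. Notch3 was lower in Sod1KO smooth muscle-like cells by little, at -0.08 (-0.14 to -0.03) and -0.23 (-0.37 to -0.09). Nrip2 was the only other pathway gene past 2-fold the same way in both sorts of a class. It was higher in Sod1KO pericyte-like cells by 1.27 and 1.34 on the log2 scale, from 12 to 26 and from 10 to 81 UMIs.

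**Figure D3:**
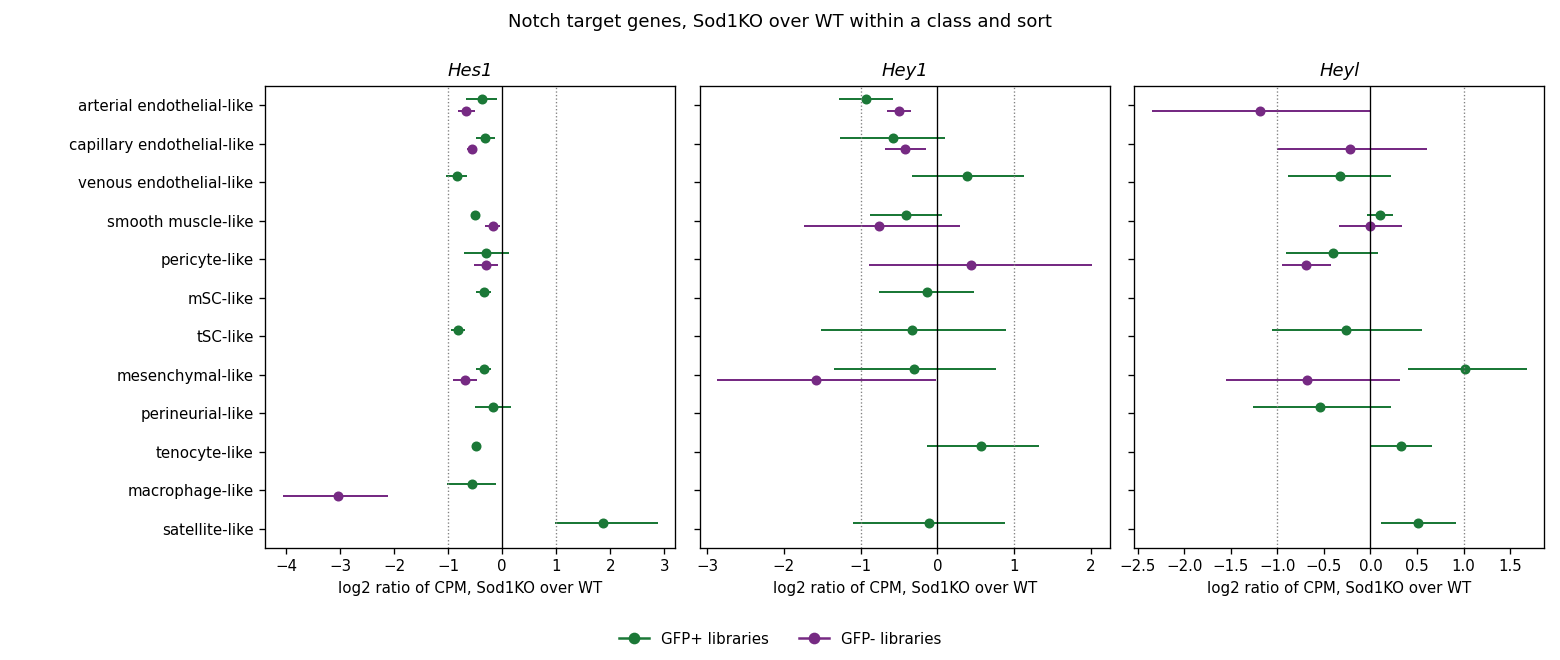
Log2 ratio of Sod1KO over WT for the 3 target genes by class, for values with at least 20 UMIs. Points are ratios, bars exact 95% counting intervals, colors the GFP+ and GFP- libraries, and dotted lines mark 2-fold. Hes1 lies below 0 except in satellite-like cells, and Hey1 lies below 0 in arterial endothelial-like cells at -0.93 and -0.50.

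The remaining 2-fold differences are given with their levels or counts and, where they were read, with sums of other cells' markers. Notch3 was lower in Sod1KO arterial endothelial-like GFP- cells, from 59.3 to 22.9 CPM, and so was Heyl, from 13 to 16 UMIs or 8.66 to 3.81 CPM. The 12 pericyte markers summed to 2291 CPM in those WT cells and 1311 CPM in the Sod1KO cells, and to 787 and 862 CPM in the GFP+ sort, where Notch3 had a ratio of 0.45. In tSC-like cells Notch3 was at -1.05 and Dll4 at -2.05, from 32 to 13 UMIs, but without doublet removal the Dll4 ratio was 0.05. There the endothelial markers summed to 355 CPM in WT and 143 CPM in Sod1KO, and the pericyte markers to 607 and 286 CPM. Within cluster 15 the ratios were -0.52 for Notch3 and -0.36 for Dll4. Dll4 was lower in Sod1KO pericyte-like GFP- cells, from 18 to 25 UMIs or 31.6 to 13.7 CPM, with endothelial markers at 1301 and 1225 CPM. Notch3 was lower in mesenchymal-like GFP- cells, from 25 to 130 UMIs or 35.7 to 11.7 CPM. It was also lower in macrophage-like GFP+ cells, from 18 to 11 UMIs, where without doublet removal it was higher, at 1.55. Hey1 was lower in mesenchymal-like GFP- cells, from 6 to 32 UMIs or 8.57 to 2.87 CPM. Heyl was higher in the GFP+ sort of that class, from 29 to 102 UMIs or 5.55 to 11.2 CPM, a log2 ratio of 1.02 (0.41 to 1.67). That class held 266 WT and 671 Sod1KO GFP+ cells, of which cluster 11 held 76 and 313. The Heyl ratio was 0.95 in cluster 4 and 0.41 in cluster 11, and cluster 21 had 1 UMI in each GFP+ library. The part of other cells' RNA in these values was not tested.

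Over the 49 other pathway genes, 605 values had 20 or more UMIs in the 18 pairs, and 17 were higher and 4 lower at least 2-fold in Sod1KO. These are 2.81% and 0.661% of the values, both below the shares of all genes. Maml2 was higher in Sod1KO in 14 of 18 pairs with a median log2 ratio of 0.36, as 7.99% of genes were in at least that many. Maml3 was higher in 16 of 18 with a median of 0.24, as were 2.18% of genes in at least that many. Spen, a corepressor of RBPJ, was lower in 17 of 18, with a median of -0.18, against the 3.13% of genes given for Hes1. These genes were chosen after their values were seen.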

How the data were processed

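Single cells of 4 libraries, 1 per genotype and sort, were read by 10x 3' sequencing. Per the submitters' processing notes the authors used Cell Ranger 7.1.0, Seurat 4.30 and mm10. The deposited values are raw UMI counts per gene and barcode, and library totals ran from 21959719 to 105954116 UMIs. Barcodes with over 200 genes and under 10% mitochondrial UMIs were kept. Doublets were removed by comparison with simulated doublets, at 0.8% per 1000 barcodes. Cells were clustered on 2000 variable genes, 30 principal components and 20 neighbors (Leiden resolution 1), leaving out the 10 genes and 49 other pathway genes. Marker lists of related cell types, such as endothelial and arterial endothelial, were grouped into lineages. A marker counted in a cluster if it was above 20 CPM there and more than 2-fold its average level elsewhere. A list passed when at least 50% of its markers counted, with a minimum of 3. Clusters were named only where all passing lists belonged to 1 lineage. Some of these clusters, such as shallow ones, still stayed unnamed. That naming rule was set after a first look at the clusters. Counts were summed per class and library. Intervals are exact Poisson for levels, exact binomial for shares and exact conditional binomial for ratios. Classes needed 20 cells and ratios 20 UMIs, and a count of 0 was set to 3 UMIs. A gene set apart in a contrast between classes had to pass 2-fold in every library. Of the other pathway genes, those named passed 2-fold in every library of such a contrast or in both sorts of a class, except where the text says otherwise. The members and lists were chosen with earlier results of these data known. Counts were handled with pandas 2.3.3 and numpy 2.4.6 under Python 3.11.15, intervals came from scipy 1.17.1, components and neighbors from scikit-learn 1.9.0, clusters from leidenalg 0.10.2 with igraph 0.11.9, and plots from matplotlib 3.10.9. The ratio and interval code was tested on simulated data. Alternatives were other doublet, cell filter, ambient RNA, resolution, scaling and averaging choices.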

Additional observations from a re-analysis of the deposited data

How the results depend on the processing

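No paired analysis was possible because each group was 1 library, and for the same reason no replicate could be left out. Of 90 counts recomputed under the alternatives, 77 were within 1.5 times the reported count, and of 2707 single values 2387 stayed within their counting interval, 318 moved beyond it and 2 reversed. The 2387 include 92 values for the GFP+ libraries alone and 88 without the WT GFP- library. Those are ratios within a sort or library, which dropping other libraries cannot change. Without doublet removal the members past 2-fold in Sod1KO were 9 higher (2 as reported) and 4 lower (9 as reported), the other pathway genes 8 lower (4 as reported), and the log2 ratios of Dll4 in tSC-like GFP+ cells and Notch3 in macrophage-like GFP+ cells became 0.051 and 1.55. At resolution 2 the other pathway genes gave 8 lower. With 5% ambient RNA subtracted the members gave 9 higher, and 1 was lower in smooth muscle-like than pericyte-like cells (0 as reported). The stricter cell filter gave 2 lower in that contrast and 1 higher in tSC-like than mSC-like cells (2 as reported). Means of per-cell CPM gave 1 higher in tSC-like cells, and 28 higher (17 as reported) and 15 lower among other pathway genes in Sod1KO. In the GFP+ libraries alone, an alternative chosen after seeing the data that drops the GFP- values, 3 members and 1 other pathway gene were lower. The cause of the other changes was not tested. Genotype cannot be told apart from the pool of mice, the library or its depth, and classes under 60 cells leave wide counting intervals.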

Other observations

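Some of the unnamed clusters held markers of 2 lineages together. Cluster 13, led by Olfr78 and Pcsk1, held 45, 56, 21 and 316 cells at a median of 21965 UMIs. It passed 91.7% of the arterial endothelial list, 66.7% of the endothelial, 66.7% of the pericyte and 58.3% of the smooth muscle list. Its Notch3 was at 495, 494, 431 and 526 CPM. Hey1 was lower there in Sod1KO in both sorts, with log2 ratios of -0.91 (-1.21 to -0.61) and -0.78 (-1.03 to -0.51). Cluster 5 had endothelial and pericyte markers at a median of 19859 UMIs. It held Notch3 at 308 to 374 CPM beside Dll4 at 86.7 to 113 CPM, and its Hes1 ratios were -0.38 and -0.54. Cluster 8 passed the marker rule for both myelinating Schwann and perineurial lists at a median of 19807 UMIs, and its Hes1 went from 292 to 184 CPM. The part of doublets in these clusters was not tested.

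The gene whose level followed that of a member most closely was described by Pearson correlation of log2(CPM + 1) over 41 class and library pairs, which share libraries and depth, among 8079 genes. Dll4 followed Cldn5, a tight junction gene of endothelium (r = 0.98). Jag2 followed Nos3, the endothelial nitric oxide synthase (r = 0.965), and Notch3 followed Des, the intermediate filament desmin (r = 0.95). Heyl followed Pde3a (r = 0.94), Notch1 Cdk17 (r = 0.92), Notch4 Apol10b (r = 0.92) and Notch2 Bcl6 (r = 0.89). The weakest leading correlations were those of Hes1 with Btbd3 (r = 0.84), Jag1 with Syne2 (r = 0.83) and Hey1 with Hspa4 (r = 0.83).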
